A study of Rattus norvegicus with 8 samples.

Results

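The glucocorticoid response genes examined here were 9 genes, Zbtb16, Klf9, Fkbp5, Tsc22d3, Sgk1, Nr3c1, Hsd11b1, Dusp1 and Errfi1, chosen by gene symbol from the 32623 genes of the deposited table. Each symbol had a single row, and all 9 passed the filter on low counts that left 16715 genes for testing. Lung RNA was sequenced from rats given monocrotaline (MCT, 4 libraries) and from control rats (4 libraries). Monocrotaline is a plant alkaloid used to produce pulmonary hypertension in rats, and the study looked for lung transcripts that differ in that model. The labels used here give no strain, sex, age, dose, route or time after treatment, no hour of tissue collection, and do not say whether each library is a different animal. The p-values therefore measure the spread between libraries, which may be partly technical.

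Glucocorticoids are steroid hormones of the adrenal cortex. They enter cells and bind the glucocorticoid receptor, encoded by Nr3c1, which is held ready by heat shock protein chaperones and then moves to the nucleus to switch target genes on or off. In the lung they mature the alveolar epithelium, raise sodium and water uptake from the air spaces and restrain inflammation. Among the 9 genes, Hsd11b1 encodes the enzyme that regenerates active hormone inside cells. Fkbp5 encodes a co-chaperone that lowers the receptor's affinity for hormone and is itself induced by it. Zbtb16, Klf9, Tsc22d3, Sgk1, Dusp1 and Errfi1 are induced by the receptor in many tissues, although several of them, Dusp1 and Errfi1 among them, also answer to growth factors and stress.

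RefSeq start-site windows (build GRCr8, 250 bases before to 50 after an annotated start) were at hand for 7 of the 9 genes, 12 windows in all, since Sgk1 and Tsc22d3 have 3 starts each and Nr3c1 has 2. A full glucocorticoid response element, searched on both strands as GNACA and TGTNC with 3 bases between them, was in 0 of these 12 windows and in 0.439% of all 33469 windows. The single-arm site AGAACA was also in 0 of the 12, against 20.7% of all windows. The cAMP response element TGACGTCA, which responds to stress and mitogen signals, was in 1 window, that of Dusp1, against 1.83% of all windows. The shorter TGACG, which overlaps it, was in 4 windows (Dusp1, Klf9, Errfi1 and 1 of Tsc22d3), against 21.2%. The absence of a match says only that these letters are not in this window. The windows of Klf9 (chr1:230126396-230126695, plus strand), Tsc22d3 (chrX:109009985-109010284, minus strand) and Dusp1 (chr10:17184603-17184902, plus strand) are shown because the first pair belong to genes that fell in MCT and Dusp1 to a gene that varied most between libraries of the same group. Capitals mark TGACG on either strand and, in Dusp1, the full TGACGTCA that starts 124 bases before the start.
Klf9: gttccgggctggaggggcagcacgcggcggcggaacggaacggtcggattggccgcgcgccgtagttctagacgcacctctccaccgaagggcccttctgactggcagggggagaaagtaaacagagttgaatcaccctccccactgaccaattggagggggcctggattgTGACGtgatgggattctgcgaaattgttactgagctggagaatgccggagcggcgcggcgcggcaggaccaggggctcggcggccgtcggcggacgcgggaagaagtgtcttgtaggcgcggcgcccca
Tsc22d3: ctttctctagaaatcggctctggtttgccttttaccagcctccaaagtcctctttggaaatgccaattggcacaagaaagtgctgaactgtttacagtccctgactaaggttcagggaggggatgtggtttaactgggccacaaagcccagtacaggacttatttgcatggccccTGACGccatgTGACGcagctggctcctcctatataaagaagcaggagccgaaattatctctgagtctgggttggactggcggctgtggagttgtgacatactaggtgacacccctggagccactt
Dusp1: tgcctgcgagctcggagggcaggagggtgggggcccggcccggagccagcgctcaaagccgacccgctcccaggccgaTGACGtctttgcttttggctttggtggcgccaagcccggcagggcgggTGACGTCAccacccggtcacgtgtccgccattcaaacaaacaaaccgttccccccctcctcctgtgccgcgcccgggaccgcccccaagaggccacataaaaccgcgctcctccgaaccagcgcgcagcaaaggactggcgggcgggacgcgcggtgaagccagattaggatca

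In MCT lungs, 3 of the 9 genes were lower (Zbtb16, Klf9 and Tsc22d3), 1 was higher (Sgk1), and 5 did not pass the threshold of an adjusted p under 0.05 in edgeR's quasi-likelihood test. Over all 16715 genes, 9.45% were lower and 11.0% higher by the same rule, 20.5% in all. In whole-lung RNA, fewer cells of a type and less RNA per cell cannot be told apart. The median log2 fold change (MCT minus control) of the 9 was -0.62, against 0.03 for all genes tested, and 8 of the 9 lay below 0, against 47.6% of all genes. The 8 included Hsd11b1 (-0.01) and Dusp1 (-0.09), whose signs changed between settings. The members were chosen with earlier results of these data known, so no test of the group as a whole was made. By FPKM (fragments per kilobase of transcript, scaled to the size of the library), the MCT and control libraries did not overlap for the same 4 genes, 3 lower and 1 higher, where 11.7% of all genes lay apart downwards and 13.3% upwards, 25.0% in all. The same 3 genes were lower, and Sgk1 higher, in each of 20 alternative settings.

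**Figure D1:**
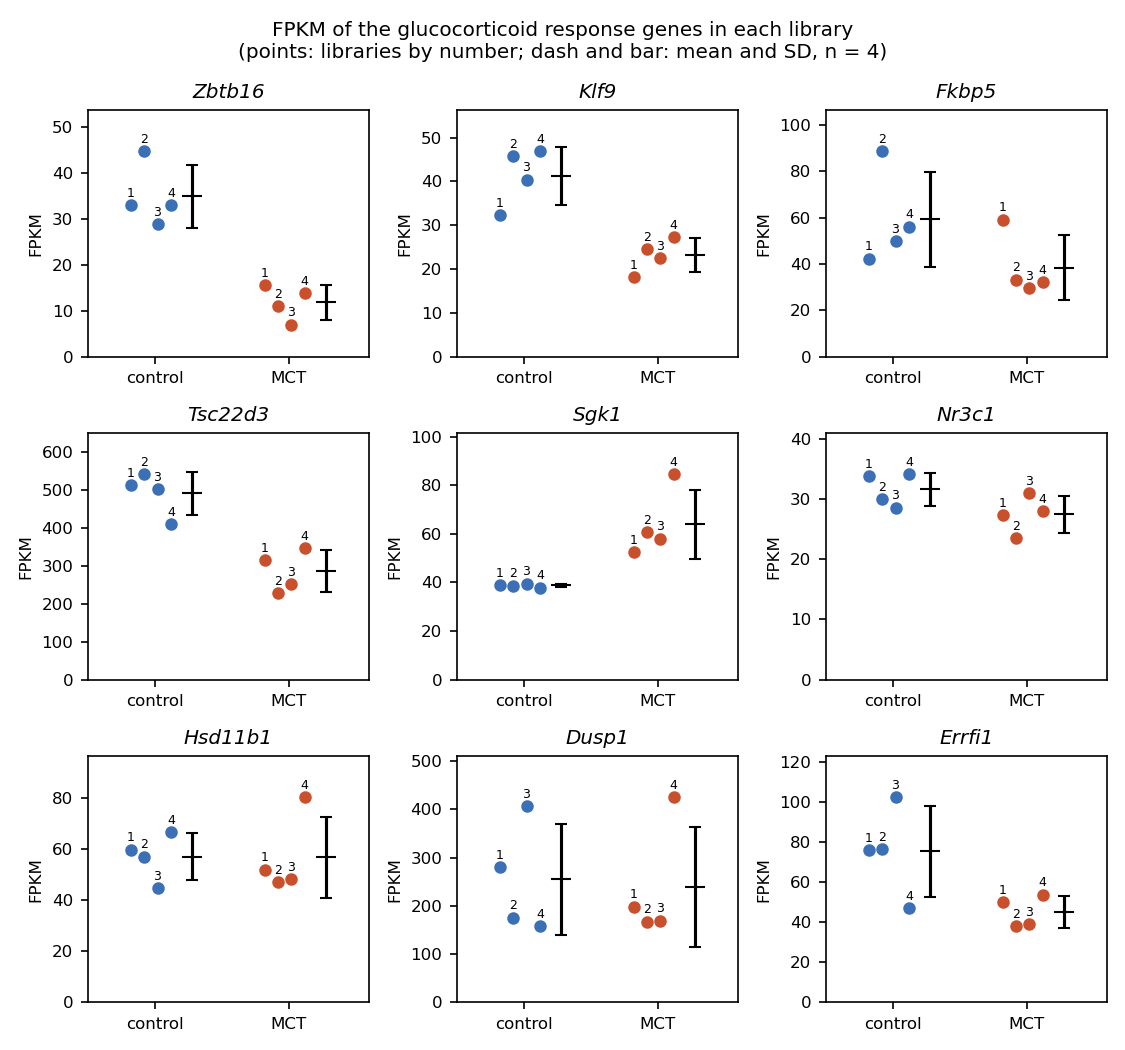
FPKM (vertical axes, from 0) of the 9 genes in each of the 4 control libraries (blue) and 4 MCT libraries (red), numbered by library, with the mean and SD of each group. Zbtb16, Klf9 and Tsc22d3 lie lower and Sgk1 higher in MCT with no overlap, while Dusp1 is spread from 158 to 407 FPKM in control and from 167 to 425 FPKM in MCT.

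Zbtb16, a zinc finger transcription repressor with little expression in many tissues until glucocorticoid is given, had the largest difference of the 9. It lies on chromosome 8 from 52985313 to 53146953 (Rnor_6.0, minus strand, ENSRNOG00000029980). Its FPKM was 33.1, 44.8, 28.9 and 33.1 in control libraries 1 to 4 and 15.6, 10.95, 6.94 and 13.8 in MCT libraries 1 to 4. The highest MCT library lay below the lowest control library. The log2 fold change was -1.56 (SE 0.26, adjusted p 0.00399), a level 2.95-fold lower in MCT. This was the 117th largest fall among the 1579 genes called lower. With MCT 3, the lowest library, left out, it was -1.37 (adjusted p 0.00446).

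Klf9, a Krüppel-like transcription factor that is a direct receptor target and also follows the daily clock, fell in MCT. It lies on chromosome 1 from 240908483 to 240933198 (plus strand, ENSRNOG00000014215). Its FPKM was 32.4, 45.8, 40.4 and 46.9 in control and 18.2, 24.5, 22.5 and 27.3 in MCT. Control 1 was the lowest control library and MCT 1 the lowest MCT library, and the groups did not overlap. Its log2 fold change was -0.84 (SE 0.15, adjusted p 0.00505).

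Tsc22d3 encodes GILZ, a leucine zipper protein that carries part of the anti-inflammatory action of glucocorticoids. Its row spans 3612 bases of chromosome X, from 111884295 to 111887906 (minus strand, ENSRNOG00000056135). It was the most abundant of the 9 genes, with a mean FPKM at the 99th percentile of the genes tested. Its FPKM was 513, 542, 504 and 411 in control and 316, 228, 251 and 348 in MCT. The groups did not overlap, with control 4 the lowest control library and MCT 4 the highest MCT library. A log2 fold change of -0.79 (SE 0.16, adjusted p 0.00844) put it 1.73-fold lower in MCT.

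Sgk1, a kinase that keeps epithelial sodium channels at the cell surface and is induced by both glucocorticoids and mineralocorticoids, was the member that rose. It lies on chromosome 1 from 24185435 to 24302298 (minus strand, ENSRNOG00000011815). Its FPKM was 38.9, 38.6, 39.5 and 37.9 in control and 52.3, 60.8, 57.9 and 84.5 in MCT. The control libraries were nearly equal, with a coefficient of variation of 1.77%, against 22.2% in MCT, where MCT 4 was the highest. The log2 fold change was 0.72 (SE 0.14, adjusted p 0.00672), a level 1.65-fold higher in MCT, and it was 0.55 (adjusted p 0.00444) without MCT 4.

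Fkbp5 did not pass the threshold, with a log2 fold change of -0.62 (SE 0.30, adjusted p 0.185, 95% interval -1.31 to 0.06). It lies on chromosome 20 from 7976713 to 8019020 (minus strand, ENSRNOG00000022523). Its FPKM was 42.3, 88.7, 49.9 and 56.2 in control and 59.2, 33.2, 29.6 and 32.0 in MCT. MCT 2, 3 and 4 lay below every control library, while MCT 1 lay above 3 of the 4. Without MCT 1 the log2 fold change was -0.92 (adjusted p 0.0346), and with control 1 also left out it was -1.06 (adjusted p 0.0185). Leaving out only control 2, the highest control library, moved it the other way, to -0.36 (adjusted p 0.398). MCT 1 also had the highest mean log2 CPM (counts scaled to library size) of the ciliated cell markers, 5.05 where the remaining 3 had 2.88 to 3.79, and of the cardiac muscle markers, 3.42 against 1.65 to 2.15. It had the lowest of the mast cell markers, 5.09 against 6.54 to 6.83. The part of these in the Fkbp5 value was not tested.

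Errfi1, which encodes a feedback inhibitor of the epidermal growth factor receptor, lay at the threshold. It lies on chromosome 5 from 167952728 to 167966009 (plus strand, ENSRNOG00000058186). Its FPKM was 75.9, 76.4, 102 and 47.0 in control and 49.9, 37.9, 39.2 and 53.8 in MCT. Control 4 lay within the MCT range, and the other 3 control libraries lay above every MCT library. The log2 fold change was -0.74 (SE 0.23, adjusted p 0.0501). Without control 4 it was -0.92 (adjusted p 0.011), and leaving out any other single library gave an adjusted p of 0.0543 to 0.13.

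The receptor gene itself and the activating enzyme did not pass the threshold. Nr3c1 (chromosome 18, 31728373 to 31749647, ENSRNOG00000014096) was at 33.7, 29.9, 28.5 and 34.1 FPKM in control and 27.3, 23.4, 31.0 and 27.9 FPKM in MCT. Its log2 fold change was -0.20 (SE 0.09, adjusted p 0.164), with a 95% interval of -0.42 to 0.01. The interval leaves room for a fall of up to that lower bound, and the groups overlapped through MCT 3. Hsd11b1 (chromosome 13, 111926442 to 111972603, ENSRNOG00000005861) was at 59.9, 57.1, 44.8 and 66.8 FPKM in control and 51.9, 47.0, 48.2 and 80.4 FPKM in MCT. MCT 4 was the highest of the 8 libraries and the other 3 MCT libraries lay inside the control range. Its log2 fold change was -0.01 (SE 0.19, adjusted p 0.989, 95% interval -0.43 to 0.42), and its sign changed between settings.

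Dusp1, the phosphatase that switches off stress-activated kinases, had the widest spread within both groups. It lies on chromosome 10 from 16970626 to 16973418 (plus strand, ENSRNOG00000003977). Its FPKM was 280, 175, 407 and 158 in control and 198, 167, 169 and 425 in MCT, a coefficient of variation of 45.1% and 51.8%. Control 3 and MCT 4 were the highest, and the groups overlapped over most of their range. The log2 fold change was -0.09 (SE 0.40, adjusted p 0.903, 95% interval -1.01 to 0.83). Its sign changed when control 3 was left out (0.23) and it was -0.52 without MCT 4.

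The libraries in which Dusp1 was high also had high levels of immediate early genes, which switch on within minutes of a stimulus and of tissue handling. Their mean log2 CPM over 22 genes was 5.81 in control 3, 5.78 in control 1 and 6.05 in MCT 4. It was 5.27 and 5.32 in controls 4 and 2, and 5.72, 5.45 and 5.34 in MCT 1 to 3. Fos was at 122 FPKM in MCT 4 against 23.1 to 42.3 FPKM in MCT 1 to 3, and Nr4a1 was at 65.4 against 13.9 to 24.5. Fosb, Zfp36 and Jun were instead highest among MCT libraries in MCT 1, at 19.3, 177 and 127 FPKM. In MCT 4 they were at 14.1, 163 and 125 FPKM. Fos was at 74.3 FPKM in control 1, above the 55.5 of control 3, whereas Dusp1 and Nr4a1 were higher in control 3. Of the 22 genes, 1 was higher in MCT (Egr2, log2 fold change 0.84, SE 0.24, adjusted p 0.0394) and 0 lower, against 11.0% and 9.45% of all genes. At an unadjusted p under 0.05, 1 was lower, and DESeq2 and limma also called 0 lower. The number higher was 0 without MCT 2, MCT 3 or control 4, while 2 were lower when MCT 4, and 1 when control 4, was left out. The Egr2 call was lost without MCT 2, MCT 3, control 1, control 3 or control 4 (adjusted p 0.0735 to 0.0975). The median of the list was 0.09. MCT 4 was the highest MCT library by FPKM for 6 of the 9 members (Klf9, Tsc22d3, Sgk1, Hsd11b1, Dusp1 and Errfi1), and it was also the deepest library. The part of immediate early activation or of depth in these values was not tested.

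**Figure D2:**
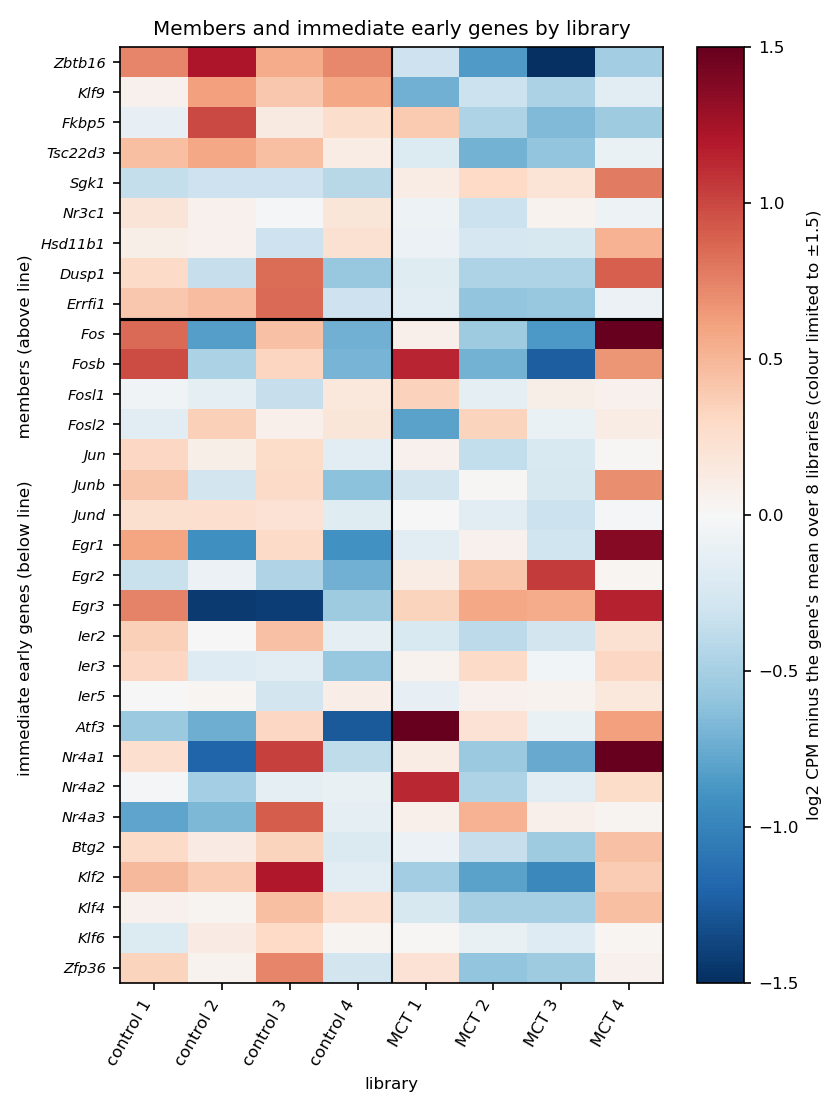
Log2 CPM of the 9 members (above the line) and 22 immediate early genes (below it) in each library, as the difference from the gene's mean over the 8 libraries, with the colour limited to 1.5 in either direction. Zbtb16, Klf9 and Tsc22d3 change colour between the groups, whereas Dusp1, Fos and Nr4a1 are high in some libraries of both groups, MCT 4 among them.

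In control lungs the order of mean FPKM was Tsc22d3 (493), Dusp1 (255), Errfi1 (75.4), Fkbp5 (59.3), Hsd11b1 (57.1), Klf9 (41.3), Sgk1 (38.7), Zbtb16 (34.9) and Nr3c1 (31.6). The ranges of Tsc22d3 and Dusp1 and of Dusp1 and Errfi1 did not overlap, and those of all later neighbours did. In MCT lungs the order of mean FPKM was Tsc22d3 (286), Dusp1 (240), Sgk1 (63.9), Hsd11b1 (56.9), Errfi1 (45.2), Fkbp5 (38.5), Nr3c1 (27.4), Klf9 (23.1) and Zbtb16 (11.8). Sgk1 stood below Klf9 in control and above Hsd11b1 in MCT. In MCT the ranges of Dusp1 and Sgk1 and of Klf9 and Zbtb16 did not overlap, and those of the other neighbours did.

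Among other genes that glucocorticoids induce, falls outnumbered rises. Of 30 listed, 29 were tested, and 11 were lower and 4 higher in MCT (37.9% and 13.8%, against 9.45% and 11.0% of all genes). The median log2 fold change was -0.34, against 0.03 over all genes. This list, like the other lists here, was chosen with earlier results of these data known, so it was not tested as a whole. Those lower were Scnn1a, Foxo3, Foxo1, Pdk4, Txnip, Klf15, Irs2, Arrdc2, Bcl6, Nfkbia and Per1. Scnn1a, the alpha subunit of the epithelial sodium channel, went from 326 ± 35.3 FPKM (SD, n = 4) in control to 174 ± 27.6 FPKM in MCT (log2 fold change -0.91, SE 0.14, adjusted p 0.00261). The other channel subunits in the list, Scnn1b and Scnn1g, had log2 fold changes of 0.16 (95% interval -0.01 to 0.32) and -0.04 (95% interval -0.30 to 0.22) and were not called. Foxo3, a transcription factor of starvation and stress responses, went from 25.9 ± 5.99 to 11.2 ± 2.38 FPKM (-1.22, SE 0.20, adjusted p 0.00367).

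The 4 genes of that list that rose were Anxa1, Il1r2, Angptl4 and Mt2A. Anxa1, an anti-inflammatory phospholipid-binding protein, went from 237 ± 16.5 to 344 ± 24.2 FPKM (log2 fold change 0.53, SE 0.09, adjusted p 0.0043). Il1r2, the decoy receptor for interleukin-1, went from 0.575 ± 0.168 to 1.82 ± 0.542 FPKM (1.65, SE 0.34, adjusted p 0.00993). Angptl4, an inhibitor of lipoprotein lipase, had a log2 fold change of 1.74 (SE 0.40) and the metallothionein gene Mt2A one of 1.83 (SE 0.45). Mt2A belongs to a family of near-identical genes, so its share of the reads is uncertain. Anxa1, Il1r2 and Angptl4 are also expressed by leukocytes or induced by other signals, and Tat, the liver aminotransferase, did not pass the filter on low counts. The part of other signals or of cell types in the values of this list, lower or higher, was not tested.

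**Figure D3:**
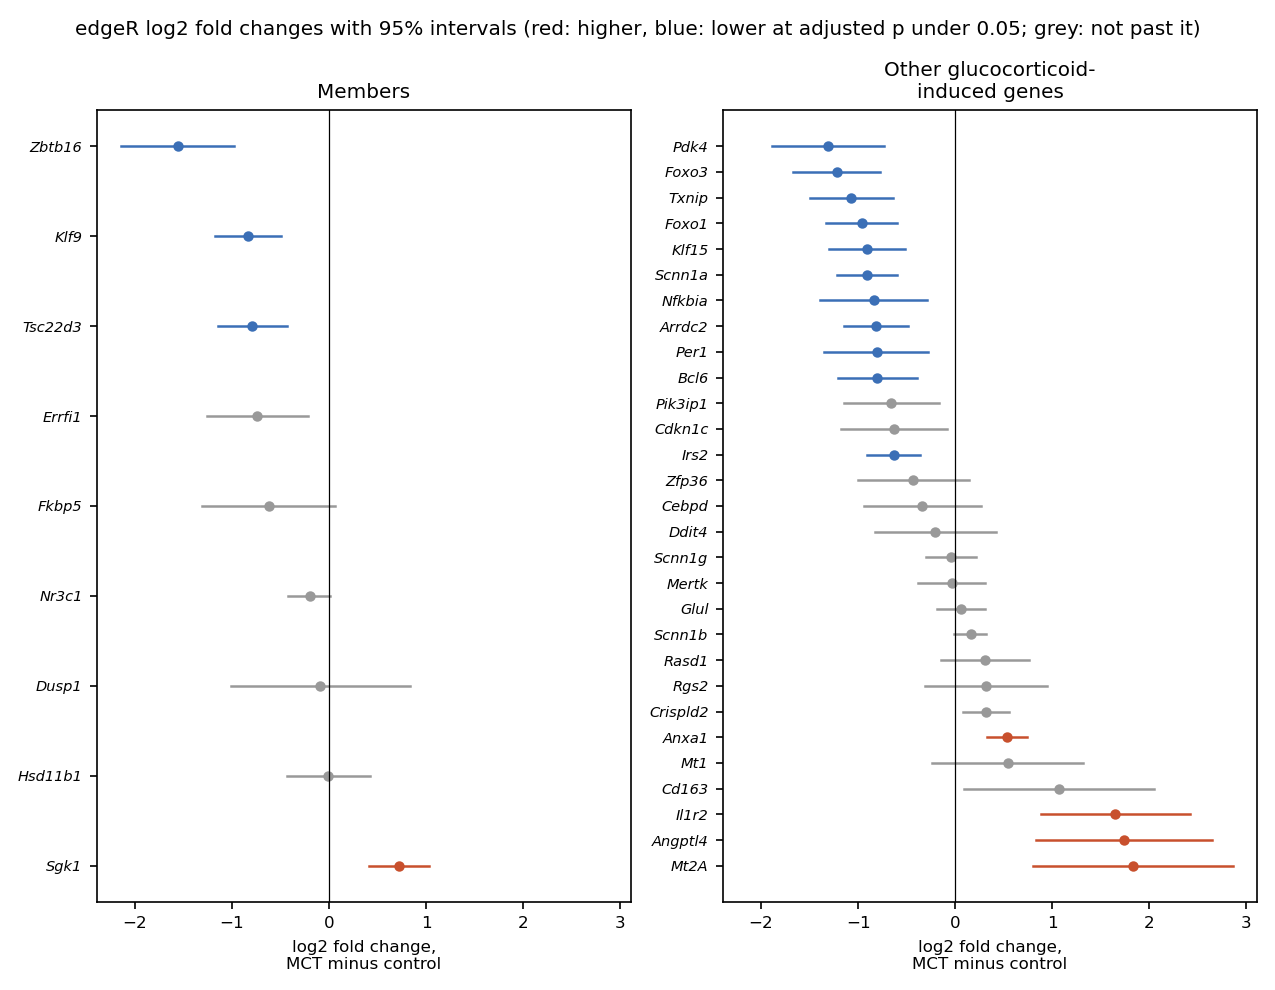
Log2 fold changes, MCT minus control (horizontal axes), with 95% intervals from edgeR's quasi-likelihood test for the 9 members and 29 other glucocorticoid-induced genes. Blue genes were lower and red genes higher at an adjusted p under 0.05: 3 and 1 of the members, and 11 and 4 of the induced genes.

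Of 12 genes that glucocorticoids repress, 11 were tested, and 1 was higher (9.09%) and 0 lower in edgeR's test, near the 11.0% of all genes called higher. The median log2 fold change was 0.76, against 0.03 for all genes. At an unadjusted p under 0.05, 4 were higher and 0 lower, and DESeq2 and limma called 3 and 2 higher and 0 lower. The one called was the monocyte chemokine gene Ccl2, at 3.35 ± 2.89 FPKM in control and 18.8 ± 4.97 FPKM in MCT (log2 fold change 2.48, SE 0.56, adjusted p 0.0157). Without control 1, the highest control library, it was 3.21. The number higher was 3 without control 1 or control 4, 1 without MCT 2 and 2 without any other single library. Il6, the interleukin-6 gene, was not tested and was listed at 0 in all 4 control libraries and at 0.17 to 1.51 FPKM in MCT.

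Of the genes for the receptor's partners, those lower were mostly coregulators. Of 20 chaperones and coregulators, 10 were lower and 1 higher (50% and 5%, against 9.45% and 11.0% of all genes). The median log2 fold change was -0.33, against 0.03 for all genes. The 10 lower included the coregulators Ncoa1, Ncoa2, Ncoa3, Nrip1, Crebbp, Ep300 and Med1, and the mineralocorticoid receptor Nr3c2, which binds the same hormones. These coregulators serve many nuclear receptors. Nr3c2 went from 2.41 ± 0.4 to 1.03 ± 0.221 FPKM (-1.22, SE 0.22, adjusted p 0.00526). Among the heat shock chaperones only Hspa4 was called in edgeR's test, at 35.7 ± 2.56 and 44.7 ± 4.07 FPKM (0.32, SE 0.09, adjusted p 0.0275), a call lost without MCT 2, MCT 3, control 1, control 2 or control 3 (adjusted p 0.0507 to 0.0793). Hsp90aa1 had a larger log2 fold change of 0.43 (95% interval 0.13 to 0.74) but narrowly missed the threshold in edgeR's test (adjusted p 0.0527). DESeq2 and limma each called 2 genes of the list higher. The number higher in the list by edgeR was 0 without MCT 2, MCT 3, control 2 or control 3, and the number lower was 6 without MCT 3. Fkbp4, the co-chaperone that works against Fkbp5, had a log2 fold change of -0.30 (95% interval -0.59 to -0.00) and was not called.

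In steroid handling, 4 of 8 listed genes were tested. Srd5a1, a steroid reductase that inactivates glucocorticoids and turns testosterone into a more potent androgen, went from 9.54 ± 0.711 to 5.65 ± 0.862 FPKM (log2 fold change -0.76, SE 0.14, adjusted p 0.006). Cyp21a1, a hydroxylase of corticosteroid synthesis, went from 0.237 ± 0.0741 to 1.26 ± 0.447 FPKM (2.38, SE 0.39, adjusted p 0.00341), a difference between low levels. Hsd11b2, the enzyme that works against Hsd11b1, was at 1.57 ± 1.01 and 2.42 ± 0.885 FPKM and was not called (0.61, adjusted p 0.413). H6pd, which supplies Hsd11b1 with its cofactor, was not called either (-0.12, adjusted p 0.578).

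Klf9 and Per1 also belong to the daily clock, and the hour of collection is not given in the labels. Of 19 clock genes, 4 were lower (Per1, Tef and Cry2 among them) and 1 higher (Arntl). These were 21.1% and 5.26%, against 9.45% and 11.0% of all genes. The median log2 fold change was -0.42, against 0.03 for all genes. Per1 went from 71.2 ± 19.0 to 40.7 ± 9.53 FPKM (-0.81, SE 0.24, adjusted p 0.0412), and Tef from 67.2 ± 6.3 to 42.0 ± 10.4 FPKM (-0.68, SE 0.18, adjusted p 0.0271). Cry2 fell by 0.36 on the log2 scale (SE 0.11, adjusted p 0.0487), a call lost with upper-quartile scaling (0.0528), with limma at 3 pseudocounts (0.0623 to 0.0627) and without any single library other than MCT 1 or control 2 (0.0737 to 0.127). The Per1 call was lost without MCT 2, MCT 3, control 1, control 2 or control 3 (adjusted p 0.0555 to 0.111), and the Tef call without MCT 3, control 1, control 2 or control 4 (adjusted p 0.0501 to 0.0627). Arntl, the activating arm of the clock, went from 3.94 ± 1.17 to 8.92 ± 2.33 FPKM (1.18, SE 0.24, adjusted p 0.00956). The number of clock genes lower was 0 without MCT 3, 1 without MCT 2, control 1, control 3 or control 4, and 2 without MCT 4 or control 2. The part of the hour of collection in the values of Klf9, Per1, the other members and the other lists was not tested.

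Of 40 close relatives of the 9 members that were tested, 6 were lower and 5 higher (15% and 12.5%), near the 9.45% and 11.0% of all genes, with a median log2 fold change of -0.06. Besides Klf9 and Klf15, the Krüppel-like factor genes Klf3, Klf10, Klf11 and Klf13 fell, with Klf3 going from 27.2 ± 1.65 to 17.7 ± 1.84 FPKM (-0.62, SE 0.09, adjusted p 0.0026). Of 10 other Dusp genes 0 were called by edgeR, with 2 higher at an unadjusted p under 0.05 and 1 higher by DESeq2 and by limma. Of 2 other Tsc22d genes tested 0 were called, also unadjusted and by DESeq2 and limma, and Tsc22d1 had a log2 fold change of 0.01 (95% interval -0.21 to 0.23). Among immunophilins Fkbp2, Fkbp3, Fkbp7 and Fkbp10 rose, with the collagen chaperone Fkbp10 going from 13.8 ± 1.96 to 22.1 ± 4.41 FPKM (0.68, SE 0.15, adjusted p 0.0136), a call lost without control 2 (adjusted p 0.0506). Sgk2, a relative of Sgk1, was listed at 0 in all 4 control libraries and at 0.37, 1.69, 0.26 and 0.52 FPKM in MCT (adjusted p 0.00913). Against a floor of 3 read pairs over the control group it was at least 13.8-fold higher in MCT, while Sgk3 was not called (0.20, adjusted p 0.521). Without MCT 2 the number of relatives higher was 3.

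The genes whose pattern over the 8 libraries was most like each called member were found as the smallest root mean square difference in centred log2 CPM among 11218 genes. For Tsc22d3 the nearest was Klf15, a glucocorticoid-induced transcription factor of the list above, at 0.09, followed by Rusc2 and Tbkbp1 at 0.11 each. Klf15 was at 35.8, 42.0, 39.8 and 31.3 FPKM in control and 23.45, 15.2, 16.9 and 23.8 FPKM in MCT (log2 fold change -0.91, SE 0.17, adjusted p 0.00692). In Tsc22d3, Klf15, Rusc2 and Tbkbp1 alike, control 4 was the lowest control library and MCT 2 the lowest MCT library. These genes were picked for their likeness over the same libraries, so the shared order is no separate result. For Klf9 the nearest were Kazn (0.10), Gse1 (0.11) and Ano6 (0.11), with log2 fold changes of -0.82, -0.93 and -0.78. For Zbtb16 they were Fam222a (0.22), the corepressor gene Tle1 (0.27) and Echdc3 (0.28), with log2 fold changes of -1.69, -1.53 and -1.25. For Sgk1 they were Adamts15 (0.12), Chtf18 (0.13) and the tubulin gene Tubb5 (0.13), with log2 fold changes of 0.62, 0.72 and 0.54.

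Several cell type marker lists held more called genes than the 9.45% lower and 11.0% higher of all genes, and others did not. Of 11 endothelial markers tested, 5 were lower and 1 higher, and their summed FPKM was 1242 to 1456 in control and 911 to 1111 in MCT. Of 9 alveolar type 2 markers, 5 were lower and 1 higher (28958 to 37490 and 20855 to 27061), and of 9 alveolar type 1 markers 3 were lower (3654 to 4001 and 2812 to 3428). Of 9 tested macrophage markers, 6 were higher (251 to 373 and 507 to 924), and of 9 mast cell markers 8 were higher and 1 lower (66.2 to 67.5 and 249 to 1105). Of 9 fibroblast markers, 3 were higher (667 to 871 and 1092 to 1741), and of 9 T and NK cell markers 4 were lower and 1 higher (72.3 to 109 and 57.2 to 65.3). Of the ciliated, neutrophil and red blood cell markers 0 were called by edgeR, where an unadjusted p under 0.05 gave 0, 2 and 1, DESeq2 0, 1 and 0, and limma 0. Of 10 smooth muscle markers 1 was higher and 1 lower (10% each), of 7 B cell markers 1 was lower (14.3%) and of 9 cardiac muscle markers 1 was higher (11.1%), shares near those of all genes. The alveolar and endothelial markers of lung were abundant in all 8 libraries. The neutrophil marker Fpr1 was listed below 0.05 FPKM in every library. The part of cell type composition in the values of the 9 genes was not tested.

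**Figure D4:**
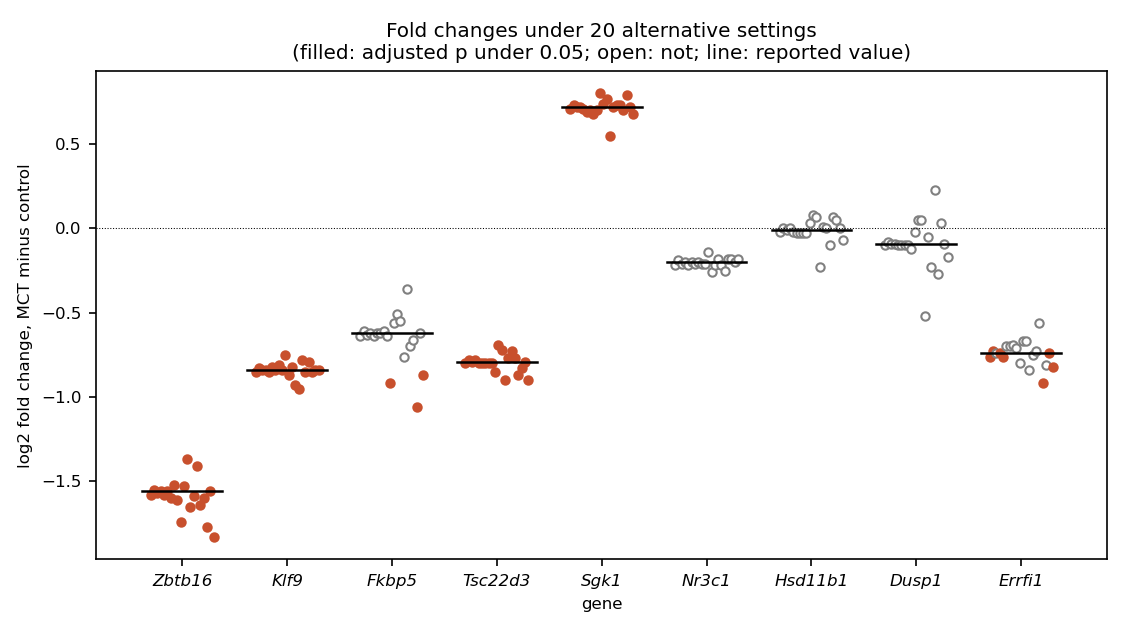
Log2 fold change, MCT minus control (vertical axis), of each of the 9 genes under 20 alternative settings, filled where the adjusted p was under 0.05 and open where it was not, with the reported value as a line. Zbtb16, Klf9, Tsc22d3 and Sgk1 are filled throughout, Errfi1 and Fkbp5 are mixed, and Nr3c1, Hsd11b1 and Dusp1 are open throughout.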

How the data were processed

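RNA from rat lung (4 MCT and 4 control libraries) was sequenced after oligo(dT) selection, per the labels' protocols. Cutadapt 1.9, HISAT2 2.0.4, StringTie 1.3.4d and edgeR are the tools named, and Rnor_6.0 the build, per the submitters' processing notes; their settings, and how reads of overlapping genes or strands were split, are not given in the sources used here. The deposited table holds an FPKM column and an estimated count column per library, per the file headers. Count values are whole, and low ones repeat about every 3.67 units, taken here as 1 read pair. Totals were 39.8 to 54.1 M units in control and 41.5 to 66.6 M in MCT, or about 10.8 to 18.1 M read pairs.

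Counts were tested with edgeR 4.0.16 (R 4.3.3; quasi-likelihood, robust, TMM, filterByExpr with minimum count 10) over 16715 genes with Benjamini-Hochberg adjustment, two-sided, at 0.05. SE and 95% intervals come from that fit, log2 CPM used a prior count of 2, and FPKM is given per library or as mean ± SD. No pair of libraries within a group was a duplicate (chi-square per gene at least 16.1). The members and lists were chosen with earlier results of these data known. Of each of 7 other lists, the 2 called genes of smallest p per direction were named, all called genes where there were 5 or fewer, and the 3 genes of most similar pattern to each called member (symbol, mean FPKM at least 2). Some items that this rule selects are not reported here. Other genes are list examples or were chosen after their values were seen. Alternatives used limma 3.58.1 and DESeq2 1.42.0. Same-numbered libraries did not deviate together (correlations -0.08 to 0.11), so the numbers were not taken to pair them.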

Additional observations from a re-analysis of the deposited data

Results flagged for a closer look

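Of 80 sets of 4 libraries (40 named genes in each group), 3 had a single library well apart from its group, none of them for the 9 members, and chance gives about 4. Control 1 stood apart for Ano6, at 20.6 FPKM against 24.1 to 25.4 in the rest of its group, with a gap of 0.937 of the group's log2 CPM range. Control 2 stood apart for Chtf18, at 1.98 FPKM against 1.68 to 1.77, with a gap of 0.868. MCT 1 stood apart for Fkbp10, at 15.6 FPKM against 23.8 to 24.9, with a gap of 0.855.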

How the results depend on the processing

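Zbtb16, Klf9, Tsc22d3 and Sgk1 kept their direction and call in all 20 alternatives, with single libraries left out at -1.74 to -1.37, -0.95 to -0.75, -0.90 to -0.69 and 0.55 to 0.80. The log2 fold change of Errfi1 passed the threshold with DESeq2 size factors (-0.76, adjusted p 0.0462), upper-quartile scaling (-0.73, 0.0495), FPKM of at least 1 in 4 libraries (-0.74, 0.0481), DESeq2 (-0.76, 0.00473), counts divided by 3.67 (-0.74, 0.0468) and array weights (-0.82, 0.0259). Single libraries left out gave -0.92 to -0.56. Fkbp5 passed it with array weights (-0.87, 0.0405) and without control 1 and MCT 1 (-1.06, 0.0185), and single libraries left out gave -0.92 to -0.36. The sign of Dusp1 changed without control 1 and MCT 1 (0.03), without MCT 2 or MCT 3 (0.05) and without control 3 (0.23), in a range of -0.52 to 0.23. That of Hsd11b1 changed with upper-quartile scaling (0.00), without control 1 and MCT 1 (0.05), and without MCT 1 (0.03), MCT 2 (0.08), MCT 3 (0.07), control 1 (0.01), control 2 (0.00) or control 4 (0.07), in a range of -0.23 to 0.08. Nr3c1 ranged from -0.26 to -0.14 and was never called. The cause of these shifts was not tested.

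The number of members lower was 5 with array weights and 3 or 4 otherwise. With single libraries left out, genes higher numbered 1191 to 1946 and lower 975 to 1730 (the lowest of each without MCT 2), clock genes lower 0 to 6, repressed genes higher 1 to 3, immediate early genes higher 0 to 1 and lower 0 to 2, relatives higher 3 to 5 and lower 4 to 8, and chaperones and coregulators higher 0 to 1 and lower 6 to 10. Clock genes lower were 7 with DESeq2 and 1 with the replicate block. Repressed genes higher were 3 with DESeq2 and without control 1 and MCT 1, and 2 with no filter, FPKM of at least 1, limma at pseudocounts 0.5, 0.1 and 1, the replicate block, counts divided by 3.67 and array weights. Immediate early genes higher were 2 with DESeq2, array weights and without control 1 and MCT 1, and 0 with limma at the 3 pseudocounts. Chaperones and coregulators higher were 2 with FPKM of at least 1, DESeq2, limma at the 3 pseudocounts, counts divided by 3.67 and array weights. Steroid handling genes higher were 0 with FPKM of at least 1, since Cyp21a1 was then not tested. Of the single genes outside the members, 572 values kept their call, 45 lost it and 0 changed sign.

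With the replicate number as a block, 1436 genes were higher and 1271 lower, against 1845 and 1579. The same-numbered libraries correlated at 0.11, 0.02, -0.02 and -0.08 and share only a number. Apart from the clock and repressed counts above and the single genes Cry2, Hspa4 and Per1, whose calls were lost, the block changed no call of a gene named here and moved no list count by over 1.5 times. Only 4 libraries a group limit the precision, and the 95% intervals give the differences these data allow.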
